A study of Mus musculus with 4 samples.

Results

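Arg1, Arg2, Mrc1, Retnla, Chil3, Chil4, Clec10a, Mgl2, Tgm2 and Pdcd1lg2 were examined in a map of promoter contacts. They are grouped here as effector genes of the alternative activation of mouse macrophages. These 10 genes were chosen for their role, with earlier results of these data known, and stand among 20720 protein-coding autosomal genes. An interaction was given to a gene where either of its 5-kb bins held a site where a protein-coding transcript of that gene starts (transcription start site, TSS; the TSS bin), or, at a wider setting, lay within 2500 bp of one (a flanking bin). Of 237102 listed interactions, 48 belonged to the 10 genes at the narrow setting and 85 at the wide one.

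The samples were bone marrow-derived macrophages (BMDMs) of C57BL/6J mice, grown for 7 days with M-CSF. The 2 groups profiled were macrophages treated with 20 ng/mL interleukin-4 (IL-4) for 24 h (n = 2) and basal macrophages (n = 2). The assay was HiChIP, which enriches ligated DNA contacts for fragments that carry a chosen mark, here H3K4me3, the histone mark of active promoters. The values are 1 list of significant bin pairs in which the 4 samples were pooled before calling, so no value below separates IL-4-treated from basal macrophages, and no replicate error exists. Each entry gives an observed count of paired reads and the count expected by the caller's model, and the ratio is observed over expected. Intervals are exact Poisson 95% intervals of the observed count and cover counting error only. All entries had a ratio of at least 2 and were selected for their excess, so a pair that is absent was not listed, which does not make its contact 0.

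IL-4 acts through its receptor on the transcription factor STAT6, which binds a palindromic DNA element and induces a set of effector genes in macrophages. The products of these genes degrade arginine, cross-link proteins, bind sugars on other cells and particles, are secreted as chitinase-like and resistin-like proteins, or dampen T cells. Enhancers that act on such promoters can lie far from them, and proximity ligation assays record which distant segments meet a promoter in the nucleus.

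Stretches just before the start of 4 genes held matches to a STAT6, STAT or C/EBP element. They are shown because they differ in motif content while 3 of the 4 genes had no interaction in their TSS bins. RefSeq promoters (GRCm38.p6, 250 bases before to 50 after the start) matched 6 of the 10 genes. The STAT6 element was searched as TTCNNNNGAA, the STAT element with a shorter spacer as TTCNNNGAA and the C/EBP element as TTGCNNAA, all on both strands. Capitals mark these matches, and the stretches are written in the direction of transcription. The Retnla stretch is chr16:48842399-48842518 (plus strand), that of Pdcd1lg2 is chr19:29410779-29410898 (plus strand), that of Chil3 is chr3:106167565-106167764 (minus strand) and that of Chil4 is chr3:106219510-106219709 (minus strand).
Retnla: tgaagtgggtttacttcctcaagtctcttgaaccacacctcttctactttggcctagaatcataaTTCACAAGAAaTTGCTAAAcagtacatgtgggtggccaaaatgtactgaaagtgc
Pdcd1lg2: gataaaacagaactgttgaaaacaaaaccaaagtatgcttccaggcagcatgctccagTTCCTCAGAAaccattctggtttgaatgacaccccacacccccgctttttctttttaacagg
Chil3: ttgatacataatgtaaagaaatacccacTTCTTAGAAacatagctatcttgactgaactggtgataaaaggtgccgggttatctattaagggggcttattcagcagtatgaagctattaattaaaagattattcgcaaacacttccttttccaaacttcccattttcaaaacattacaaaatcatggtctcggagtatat
Chil4: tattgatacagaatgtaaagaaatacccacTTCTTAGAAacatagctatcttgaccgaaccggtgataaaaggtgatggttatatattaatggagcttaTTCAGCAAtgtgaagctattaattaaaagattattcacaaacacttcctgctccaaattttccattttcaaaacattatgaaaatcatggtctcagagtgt

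Retnla held a STAT6 element at position -145 from its start and, 1 base after its end, a C/EBP element at position -134, along with a match to the PU.1 core GAGGAAGT on the minus strand at position -198. Pdcd1lg2 held a STAT6 element at position -82. The STAT6 element was found in 6.95% of 32851 RefSeq promoters of the same length, the C/EBP element in 10.8% and the PU.1 core in 3.20%. Chil3 and Chil4 each held the STAT element with the shorter spacer, at positions -172 and -200, which 8.30% of all promoters held. The TATA box TATAAA matched at -3 in Chil3 and at -31 in Chil4, so their RefSeq starts differ in place along the shared sequence. Over 271 aligned bases the Chil3 and Chil4 promoters were 92.6% identical, with 20 differing bases, and the C/EBP element at position -131 of Chil4 had no counterpart match in Chil3. Mrc1 and Mgl2 held none of these elements in this window. The AP-1 element TGANTCA, present in 7.81% of all promoters, and the EGR element GCGTGGGCG, present in 0.612%, matched none of the 6. A match is a run of letters and was not measured as a bound site.

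**Figure D1:**
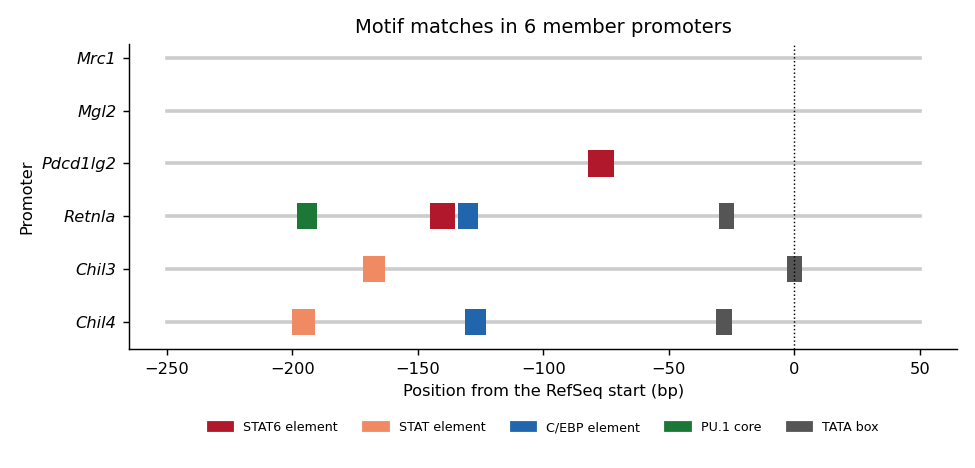
Motif matches in the RefSeq promoters of 6 of the 10 genes, by position from the annotated start (bp). Each coloured block is 1 match, and the grey line is the window of 250 bases before to 50 after the start. Retnla holds a STAT6 element at -145 beside a C/EBP element at -134, Pdcd1lg2 a STAT6 element at -82, and Chil3 and Chil4 a STAT element each, while Mrc1 and Mgl2 have no block.

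At the narrow setting 7 of the 10 genes had at least 1 interaction, against 63.2% of all protein-coding genes, and at the wide setting 9 of 10 had one, against 70.4%. The share was thus near the background at the narrow setting. The order at the narrow setting was Clec10a with 18 interactions, Arg1 with 12, Arg2 and Tgm2 with 5 each, Mrc1 with 4, Chil3 and Mgl2 with 2 each, and Retnla, Chil4 and Pdcd1lg2 with 0. The median was 3 for the 10 genes and 2 for all genes, whose upper quartile was 11. Only Clec10a and Arg1 lay above that quartile, and 83.7% and 77.2% of all genes had as many interactions or fewer. At the wide setting the median was 5.5 for the 10 genes and 4 for all genes.

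The order changed with the width. Mrc1 went to first place with 26 interactions at the wide setting, since its flanking bin alone carried 22. Tgm2 had 13, as many as Arg1, because its flanking bin added 8. Clec10a had 19, Arg2 7 and Mgl2 4. Chil4 and Pdcd1lg2 gained 1 each, Chil3 stayed at 2, and Retnla alone remained at 0. The 85 interactions at the wide setting fell in 35 of the clusters of neighbouring bin pairs that the caller formed, so the counts are not counts of separate contacts.

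**Figure D2:**
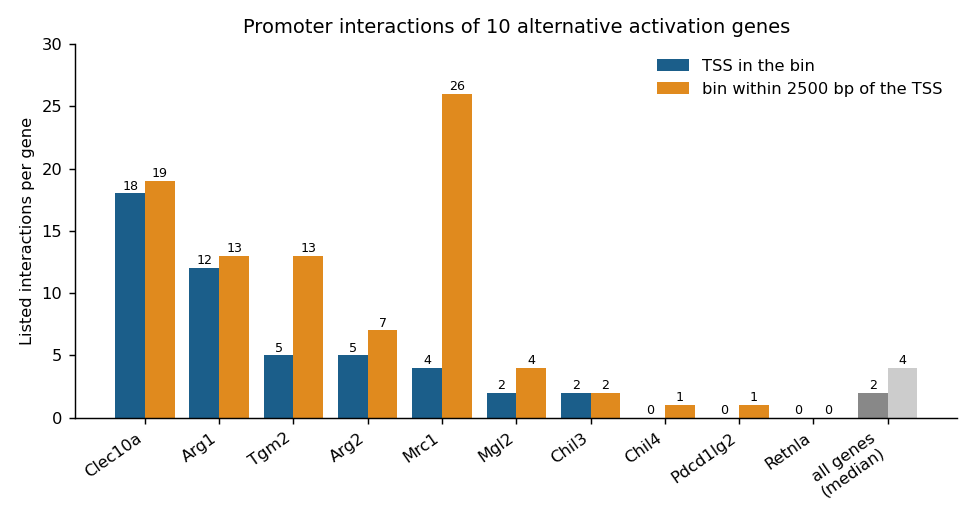
Number of listed interactions per gene for the 10 genes and, at the right, the median over all 20720 protein-coding autosomal genes. Blue bars count bins that hold a TSS, orange bars also count bins within 2500 bp of one (grey for all genes). Mrc1 has 4 and 26, Tgm2 5 and 13, and Retnla 0 and 0.

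Arg1, the cytosolic arginase that competes with nitric oxide synthase for arginine, lies at chr10:24915221-24927484 on the minus strand and has a single annotated TSS. Its TSS bin (chr10:24925001-24930000) had 12 interactions, 11 of them upstream of the gene. The highest count was 108 (interval 88.6 to 130.4) against 34.1 expected, a ratio of 3.17 (2.60 to 3.83), with an intergenic bin 15 kb upstream, at chr10:24940001-24945000. Of all 4605 listed interactions within 10% of that distance, 88.0% had a ratio at or below it. The bin at 10 kb upstream had 39 counts and a ratio of 2.27. These 2 bins formed the near contact of the promoter.

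The other upstream contacts of Arg1 began at 285 kb and went to 430 kb. A set of 6 bins between 285 and 320 kb lay within Akap7, which encodes an anchoring protein of protein kinase A. Their counts were 21, 21, 17, 10, 14 and 11 in order of distance, and their ratios fell between 3.39 and 6.30. The highest ratio of the gene, 6.30 (3.90 to 9.63), was at 285 kb, in an Akap7 intron, and lay at the 93.1st percentile of the 16700 listed interactions near that distance. The Akap7 TSS bin itself, at 370 kb, had 13 counts and a lower ratio of 2.79 (1.49 to 4.77). No other bin of Akap7 was listed with Arg1. The TSS bin of Epb41l2, a membrane skeleton protein gene, at 430 kb had 7 counts and a ratio of 3.29 (1.33 to 6.79), and the Arg1 flanking bin reached the next Epb41l2 bin with 19 counts and a ratio of 3.51.

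Arg1 had no listed interaction with the promoter of its neighbour Med23, a Mediator subunit gene 57.4 kb away whose own promoter had 33. The only downstream partner, at 35 kb, was an exon bin of Med23 with 36 counts and a ratio of 2.25 (1.58 to 3.12). Med23 was nevertheless the gene whose partner bins were most like those of Arg1: 7 bins were shared, 53.8% of the 13 of Arg1 and 29.2% of the 24 of Med23 (Jaccard index 0.233, over bins in the pooled list).

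Short stretches of the bin 15 kb upstream of Arg1, and of the bin with the highest count of Mrc1, are shown because these were the strongest near contacts of both genes. Each stretch was cut around a STAT6 element, in capitals, so its presence there was fixed by the choice. Of all bins in the list, 74.9% hold this element. The stretches are written on the plus strand of GRCm38, at chr10:24944086-24944145, chr10:24944401-24944460 and chr2:14211496-14211555.
Arg1 partner bin, first element: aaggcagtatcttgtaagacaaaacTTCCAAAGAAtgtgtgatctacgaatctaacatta
Arg1 partner bin, second element: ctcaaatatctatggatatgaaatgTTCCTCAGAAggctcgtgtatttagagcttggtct
Mrc1 partner bin: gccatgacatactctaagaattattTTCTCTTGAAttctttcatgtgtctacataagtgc

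Arg2, the mitochondrial arginase, lies at chr12:79130777-79156301 on the plus strand. Its TSS bin had 5 interactions and all were singletons, that is, bin pairs with no listed neighbour. The highest count, 141 (118.7 to 166.3) with a ratio of 2.16, was within the gene, 20 kb downstream at its 3′ end. Upstream partners were an intron of Tmem229b at 135 kb (46 counts, ratio 2.97), an intergenic bin at 190 kb (29 counts, ratio 3.12) and an exon of Plek2 at 240 kb (28 counts, ratio 3.11). The last was an intergenic bin 900 kb downstream with 13 counts and a ratio of 4.52 (2.41 to 7.73), close to the median of 4.65 at that distance.

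The flanking bin of Arg2 gave the second highest ratio of all 10 genes. It had 39 counts against 4.90 expected with a bin 170 kb downstream that holds the TSSs of Rad51b, a DNA repair gene, and Zfyve26, an endosome and autophagy gene, a ratio of 7.96 (5.66 to 10.9; false discovery rate 4.57e-21). In that flanking bin 90.0% of 75-base words also occurred elsewhere in the genome, against 0.650% in the TSS bin of Arg2, and the part of this in the ratio was not tested. The partner bin shared no such word with it. The flanking bin also reached the TSS bin of Vti1b, a SNARE gene, with 24 counts and a ratio of 2.09. Atp6v1d and Eif2s1 shared the most partner bins with Arg2, 4 of its 7 in each case (Jaccard index 0.108).

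Tgm2, the transglutaminase that cross-links proteins, lies at chr2:158116402-158146436 on the minus strand. All 5 interactions of its TSS bin went downstream. A single near one, 15 kb away in its own exons, had 121 counts and a ratio of 2.08 (1.73 to 2.49). The other 4 lay 605 to 925 kb away. The highest ratio was 5.61 (2.90 to 9.81) with the TSS bin of Src, a tyrosine kinase gene, at 690 kb, on 12 counts against 2.14 expected. A Src intron at 715 kb also had 12 counts, at a ratio of 4.48 (2.32 to 7.83), and no bin between it and the Src TSS bin was listed with Tgm2. The remaining 2 were an intergenic bin at 605 kb (12 counts, ratio 4.93) and an exon of Mroh8 at 925 kb (10 counts, ratio 4.75). At the Src distance the median ratio of all listed interactions was 4.28, and that of Tgm2 with the Src TSS lay at the 76.3rd percentile.

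The flanking bin of Tgm2, inside the gene, had only near contacts. Its 8 interactions spanned 10 to 85 kb on both sides, with counts between 34 and 184 and ratios between 2.07 and 3.51. The most counts, 184 (158.4 to 212.6), fell on the same exon bin that the TSS bin reached. Bins in the body of Rprd1b, a gene of RNA polymerase II regulation, made up 6 of the 13 interactions of Tgm2, with counts between 34 and 184 and ratios between 2.08 and 3.51. Of these, 2 were with the exon bin of Tgm2, where both gene annotations overlap. Manbal had the partner bins most like those of Tgm2, with 3 of 12 shared (Jaccard index 0.0750). Neither bin held a repeated 75-base word, while MboI sites, where the assay cuts, numbered 5 in the TSS bin and 18 in the flanking bin. All bins of the genome had a median of 12, with quartiles of 9 and 15. The flanking bins of Arg1, Arg2, Clec10a and Chil3 held 16, 28, 18 and 26 sites, and their TSS bins 9, 16, 15 and 12. Those flanking bins added 1, 2, 1 and 0 interactions, fewer than the 12, 5, 18 and 2 of the TSS bins. For Mgl2 the flanking bin held 19 sites and the TSS bin 12, and the flanking bin added 2 interactions to 2. Repeats differed too, at 90.0%, 44.4% and 20.3% of words in the flanking bins of Arg2, Clec10a and Chil3. What part the sites have in such splits was not tested.

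Mrc1, the mannose receptor CD206 and the usual surface marker of alternatively activated macrophages, lies at chr2:14229392-14332057 on the plus strand. Its TSS stands 608 bp before the end of its bin. That bin had 4 interactions and 6 MboI sites, and the next bin, which holds the start of the gene body, had 22 interactions and 15 MboI sites. What part the sites or the position of the TSS have in this split was not tested. The 4 interactions of the TSS bin were an upstream bin in an intron of Tmem236 (46 counts at 50 kb), an intergenic bin beyond that gene (31 counts at 60 kb), 1 in Mrc1 itself at 50 kb (52 counts), and 1 intergenic bin 765 kb downstream. The last had the highest ratio of the gene, 6.43 (3.32 to 11.2), on 12 counts.

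The flanking bin of Mrc1 linked the gene to a run of bins over the neighbouring Tmem236, which encodes a membrane protein, and beyond it. The highest count of any interaction of the 10 genes was here, 240 (210.6 to 272.4) against 54.8 expected, with a Tmem236 intron 20 kb upstream. Its ratio of 4.38 (3.84 to 4.97) lay at the 98.8th percentile of the 3841 listed interactions near that distance, and its false discovery rate was 2.53e-73. Of the 26 interactions of Mrc1, 9 fell in Tmem236, between 15 and 60 kb away, with counts between 46 and 240 and ratios between 2.16 and 4.38. The Tmem236 TSS bin had 66 counts and a ratio of 4.22, and an intergenic bin at 70 kb had 111 counts and the ratio 4.65 (3.82 to 5.60). A further 4 bins, at 85 to 135 kb, lay in Stam, an endosomal sorting gene, with lower ratios between 2.02 and 3.40.

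Mrc1 also had 2 groups of distant contacts through its flanking bin. The first was 3 intron bins of Cacnb2, a calcium channel subunit gene, 455 to 465 kb downstream, with counts of 16, 14 and 11 and ratios of at most 5.04 (2.75 to 8.45). Upstream, 4 bins at 635 to 665 kb surrounded Vim, the gene of the intermediate filament vimentin. The Vim TSS bin had 20 counts and a ratio of 2.99 (1.82 to 4.61), below the median of 4.21 at that distance, and an intergenic bin near it had 15 counts and a ratio of 5.83 (3.26 to 9.61). Tmem236 had only 2 interactions of its own TSS bin. Rsu1 had the partner bins most like those of Mrc1, 5 of 24 (Jaccard index 0.0610).

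Clec10a, the galactose-type lectin CD301a, lies at chr11:70166623-70170834 on the plus strand, 36.2 kb from its paralog Mgl2 in a dense region with 65 genes within 500 kb. Its TSS bin had 18 interactions, 13 upstream and 5 downstream. The highest ratio of all 10 genes, 9.48 (7.23 to 12.2), was between this bin and the TSS bin of Asgr1, 115 kb upstream, on 60 counts (45.8 to 77.2) against 6.33 expected, with a false discovery rate of 7.28e-36. It lay at the 99.7th percentile of 15796 listed interactions near that distance, whose median was 2.82. Asgr1 and Asgr2 encode the asialoglycoprotein receptor, known from hepatocytes, and are C-type lectins of the same family. The Asgr2 TSS bin at 75 kb had 36 counts and a ratio of 4.45 (3.12 to 6.16), and the bins between both genes, at 90 to 105 kb, had ratios between 3.19 and 5.92. All Clec10a partners between 75 and 170 kb upstream belonged to a single cluster of 108 bin pairs. The 18 interactions of the TSS bin fell in 6 clusters, as did the 12 of Arg1.

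Past Asgr1, Clec10a reached the body of Dlg4, a scaffold protein gene, in 3 listed bins at 125 to 145 kb, with counts of 22, 16 and 21 and ratios between 2.64 and 5.11. The TSS bin of Dvl2, a Wnt signalling gene, had 40 counts and a ratio of 3.80, and that of Phf23 had 26 and 3.10. The farthest partner was the TSS bin of Eif4a1, a translation initiation helicase gene, at 495 kb, with 17 counts and a ratio of 3.42 (1.99 to 5.48). The 5 downstream partners of the TSS bin lay nearer, at 10 to 70 kb. The TSS bin of Slc16a13, a monocarboxylate transporter gene, had 69 counts and a ratio of 2.19, and the shared TSS bin of 0610010K14Rik and Rnasek had 45 and 2.04, at the 3.37th percentile for its distance. The flanking bin of Clec10a reached the same Slc16a13 bin with 66 counts and a ratio of 3.29 (2.55 to 4.19), at the 79.3rd percentile. The highest count of Clec10a was 83 with an intergenic bin 10 kb downstream (ratio 2.53). In all, 7 of its 18 partner bins held a protein-coding TSS. Slc16a11 had the most similar partner bins, with 10 shared, 55.6% of the 18 of Clec10a and 43.5% of its own 23 (Jaccard index 0.323).

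Mgl2, the lectin CD301b, lies at chr11:70130329-70137550 and had far fewer interactions than its paralog. Its TSS bin had 2, both downstream across Clec10a. The TSS bin of Slc16a13 at 90 kb had 76 counts and a ratio of 3.17 (2.50 to 3.97), and the bin before it, in exons of Slc16a11 and Slc16a13, had 24 and 2.18. The flanking bin, 328 bp from the TSS, reached the same Slc16a13 bin with 88 counts (ratio 2.89) and the TSS bin of Clec10a with 44 counts (32.0 to 59.1) and a ratio of 2.91 (2.12 to 3.91). This was the 1 interaction that joined 2 of the 10 genes, and it was listed at the wide setting for Mgl2 and at the narrow one for Clec10a. No interaction of Mgl2 with the promoters of Asgr1 or Asgr2 was listed, although these lie nearer to it, at 75.6 and 37.7 kb, than to Clec10a. All 3 partner bins of Mgl2 were also partner bins of Asgr1, 42.9% of the 7 of Asgr1 (Jaccard index 0.429). The promoter bins of Clec10a and Mgl2 shared no 75-base word. The flanking bin of Clec10a, which had 1 interaction, was repeated elsewhere in 44.4% of its words, and its TSS bin in 6.88%.

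**Figure D3:**
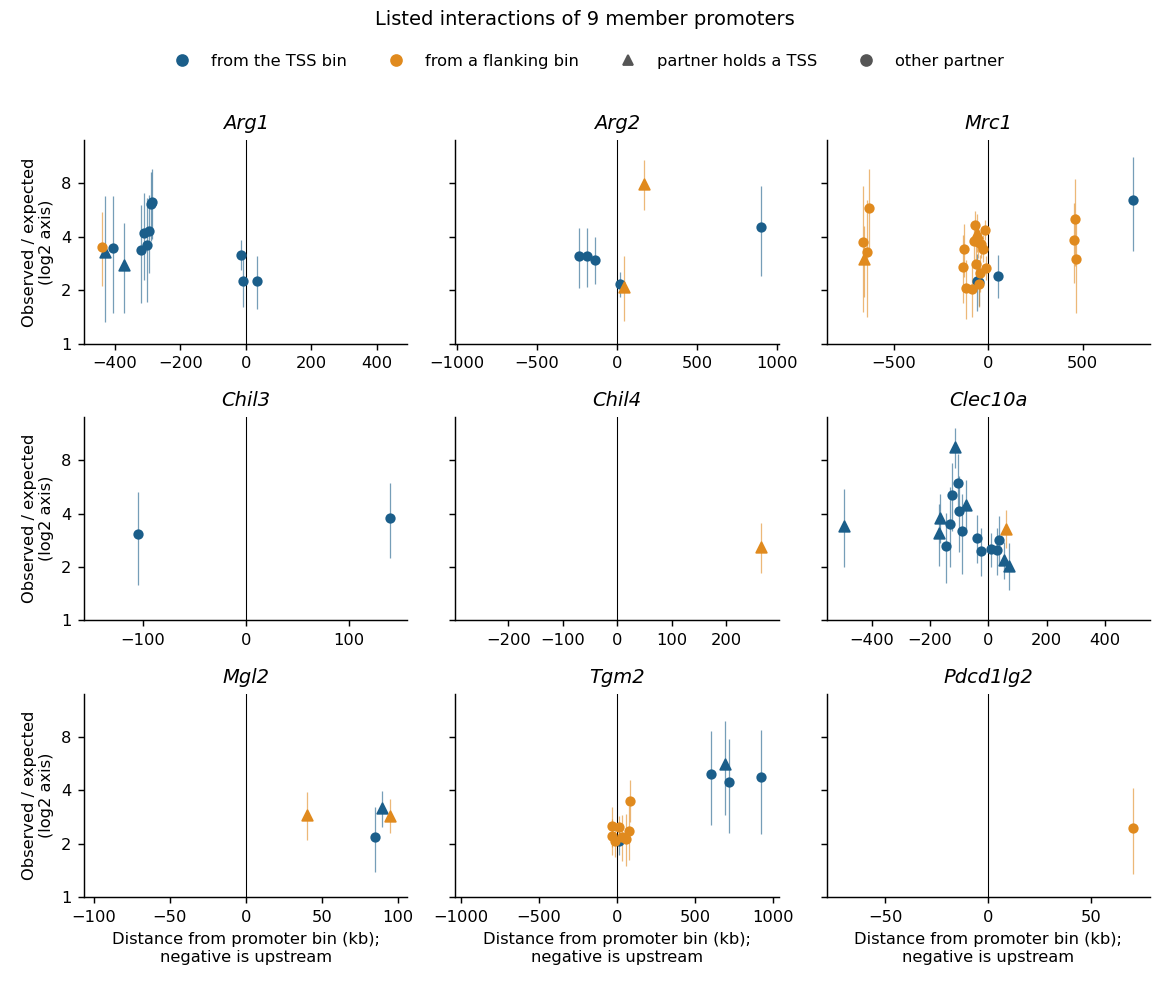
Ratio of observed to expected counts (log2 axis) of every listed interaction of 9 of the 10 genes, by distance from the promoter bin (kb, negative is upstream). Blue points start from a TSS bin and orange points from a flanking bin, triangles are partner bins with a protein-coding TSS, and bars are Poisson 95% intervals. Clec10a peaks at 9.48 with the Asgr1 TSS bin, the Arg1 points cluster upstream at 285 to 430 kb, and the blue points of Tgm2 lie downstream.

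Among the genes of secreted proteins, Retnla, the resistin-like protein also called FIZZ1 or RELMα, lies at chr16:48842551-48844461 and had no interaction at either width. No bin within 100 kb was listed and no listed interaction spanned its TSS. The nearest listed bin began 640 kb away at chr16:49480001-49485000, and the nearest gene with an interaction was Ift57, a ciliary transport gene 857 kb away, with 2. The empty stretch around Retnla ran over 3465 kb. It held the TSSs of 14 protein-coding genes, among them its paralogs Retnlb and Retnlg and the T cell gene Cd96. By the definition of the stretch, none of those TSSs lay in a listed bin. Of 38923 stretches between listed bins, 46 were at least as long. Of the 246 stretches of at least 1000 kb, 27 held at least as many genes, and their median was 2. The TSS bin of Retnla was repeated elsewhere in 0.568% of its words and held 13 MboI sites, near the median of all bins. These values are of that bin alone, and what part repeats or sites have in the empty stretch was not tested.

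Chil3, which encodes the chitinase-like protein Ym1, lies at chr3:106147554-106167564, and its near-identical paralog Chil4, which encodes Ym2, lies at chr3:106201490-106219507, both on the minus strand with 51.9 kb between their TSSs. Chil3 had 2 interactions. The first, 140 kb downstream in an exon bin of the paralog Chil5, had 18 counts (10.7 to 28.5) and a ratio of 3.78 (2.24 to 5.97). The other, with an intergenic bin 105 kb upstream beyond Chil4, had 12 counts and a ratio of 3.05 (1.58 to 5.33), and 57.2% of the words of that partner bin occurred elsewhere in the genome. The TSS bin of Chil4 was not listed. Its flanking bin had 1 interaction, at 265 kb with the TSS bin of Wdr77, a methylosome gene, on 40 counts with a ratio of 2.60 (1.86 to 3.54). No interaction between Chil3 and Chil4 was listed. Their TSS bins shared 349 of 4926 75-base words, so reads from these words cannot be assigned to either gene by sequence.

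The empty promoter of Chil4 was not in an empty region. Listed interactions that passed over its TSS numbered 77, with ratios as high as 11.2, and 76 passed over Chil3. The 3 with the highest ratios were the same for both genes. They joined the Rap1a TSS bin to an intron bin (890 kb, ratio 11.2), an exon bin to the Dennd2d TSS bin (495 kb, ratio 10.2) and the Atp5f1 TSS bin to an intergenic bin (485 kb, ratio 7.45).

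Pdcd1lg2, the PD-L2 ligand that binds the T cell receptor PD-1, lies at chr19:29410919-29471161 and has 2 TSSs in separate bins, neither of which was listed. Of 4 promoter bins at the wide setting, 1 had an interaction, with an intergenic bin 70 kb downstream past the end of the gene, on 14 counts (7.65 to 23.5) and a ratio of 2.47 (1.35 to 4.15). At the same time 136 listed interactions passed over the gene start. The one with the highest ratio, 9.37, joined the TSS bin of Cdc37l1 to an intron bin 560 kb away. Its paralog Cd274, which encodes PD-L1 and starts 43.5 kb away, had 4 interactions at the narrow setting and 37 at the wide one, and Plgrkt and Ric1 beside them had 33 and 38 at the narrow setting. The first TSS bin of Pdcd1lg2 was repeated elsewhere in 19.0% of its words and the second in 0.264%.

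**Figure D4:**
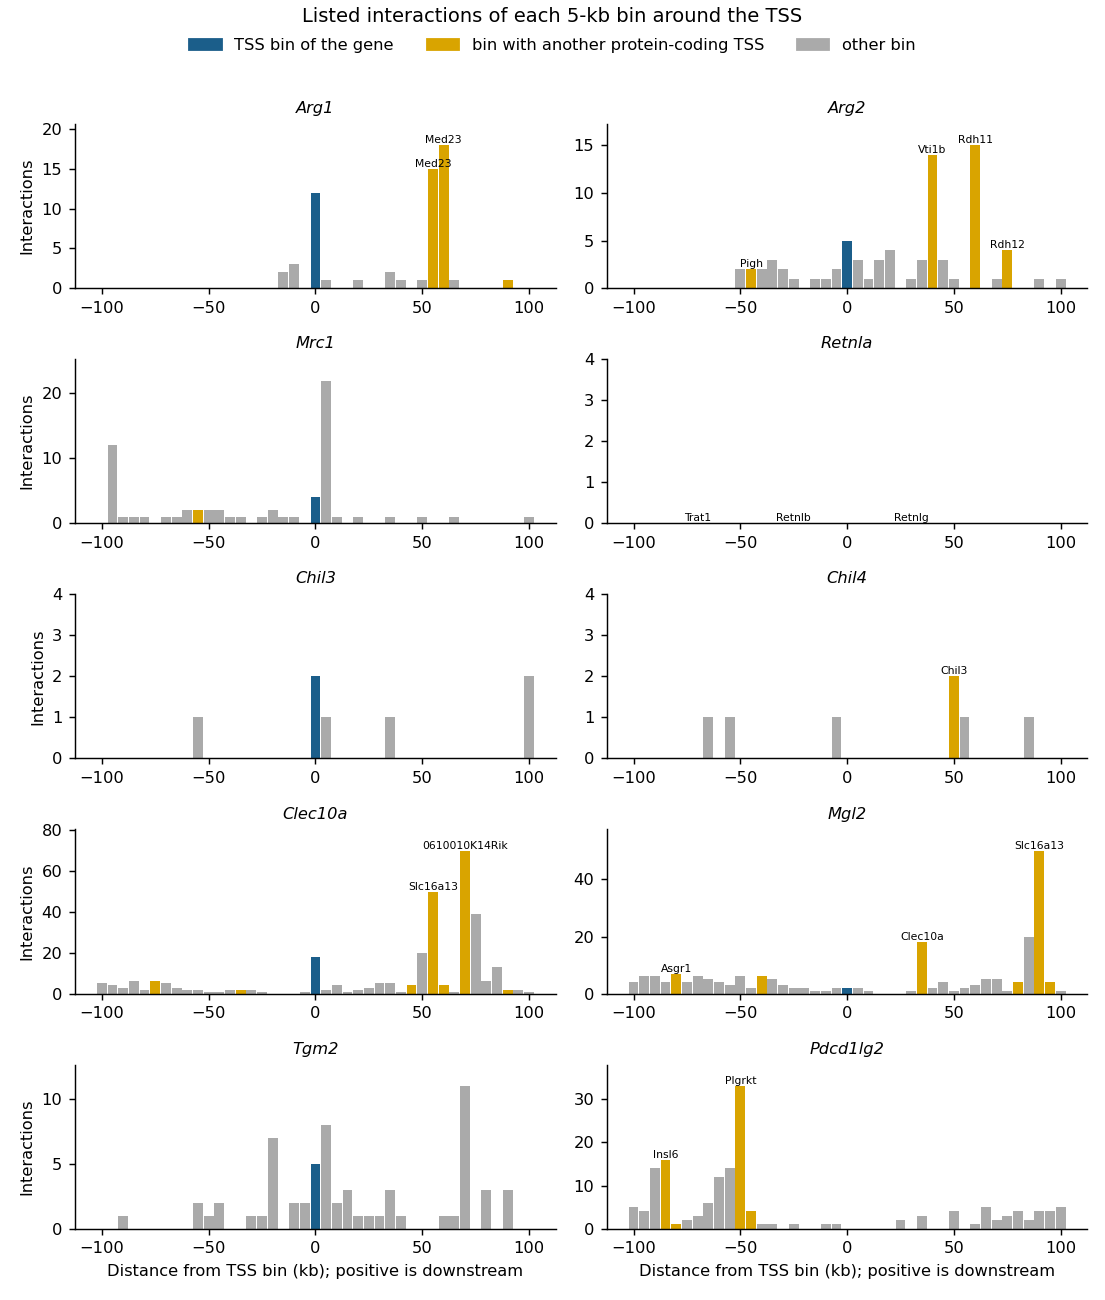
Number of listed interactions of each 5-kb bin within 100 kb of the TSS bin of each gene (kb, positive is downstream). Blue is the TSS bin, yellow bins hold another protein-coding TSS and grey bins none. The Retnla panel has no bar, the bin after the Mrc1 TSS has 22 against 4 in the TSS bin, and Pdcd1lg2 has no bar at 0 beside Plgrkt with 33.

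Ratios rose with distance throughout the list, so each ratio has to be read at its distance. Over all listed interactions the median ratio was 2.42 at 10 to 45 kb and 4.30 at 500 to 1000 kb. The 48 interactions of the 10 genes had a median ratio of 3.18, against 2.99 for all promoter interactions, and 31.2% had a ratio of at least 4, against 23.4%. Their median distance was 127.5 kb, against 190 kb, and 29.2% were singletons, against 10.6%. At the wide setting the median ratio was 3.17 against 3.03, the median distance 95 kb against 190 kb and the singletons 17.6% against 10.4%. The share with a ratio of at least 4 was nearly equal there, 24.7% against 24.5%. The 4 interactions with the highest percentiles for their distance, 97.3 to 99.7, were Clec10a with Asgr1, Mrc1 with the Tmem236 intron at 20 kb, Arg2 with the Rad51b and Zfyve26 bin, and Clec10a with the bin at 105 kb. They were singled out after their values were seen.

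**Figure D5:**
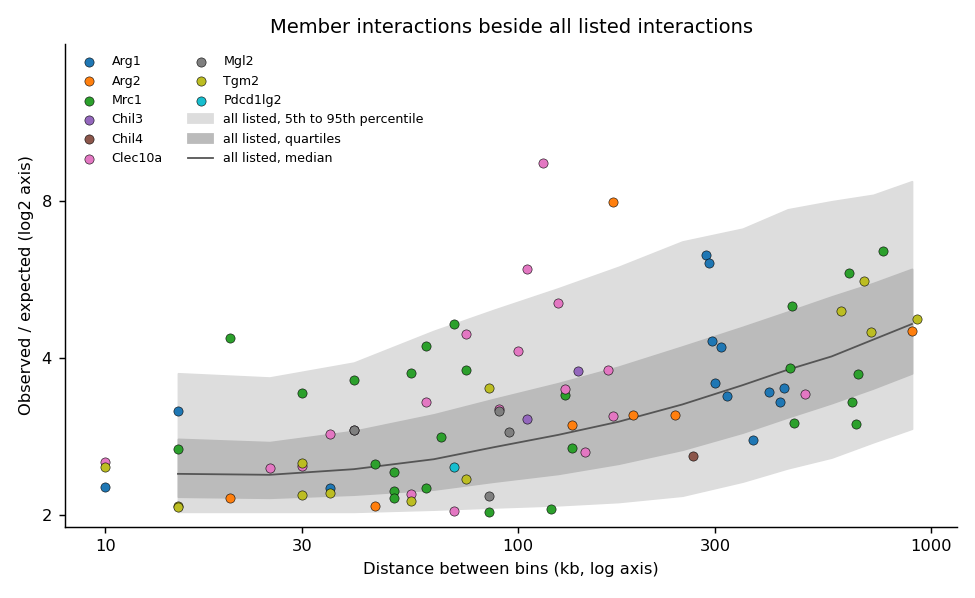
Ratio of observed to expected (log2 axis) against distance between bins (kb, log axis) for the listed interactions of 9 of the 10 genes, coloured by gene, over the median, quartiles and 5th to 95th percentiles of all listed interactions. The median of all rises from 2.42 at 10 to 45 kb to 4.30 at 500 to 1000 kb, and the Clec10a point at 9.48 and the Arg2 point at 7.96 stand above the band.

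Partner bins of the 10 genes at the narrow setting held a protein-coding TSS in 11 of 48 interactions, other exon sequence in 12, intron in 8 and no protein-coding gene in 17. More lay upstream (30) than downstream (18) of the genes, mainly through Arg1 and Clec10a. The same shares over all promoter interactions were not computed, so these numbers have no background beside them. The STAT6 element occurred in 62 of the 80 distinct partner bins at the wide setting (77.5%), against 74.9% of all bins in the list and 78.7% of 479062 genome bins of this size. The PU.1 core occurred in 28.7% of partner bins, against 28.1% of listed bins, and the EGR element in 0 of 80, against 0.675%. At this bin size most bins hold a STAT6 element. No partner bin shared a 75-base word with the promoter bin it was compared with. A partner bin reached from both promoter bins of a gene was compared with 1 of them.

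Other gene lists of macrophage activation were counted in the same way. At the narrow setting, 22 of 29 other genes of the IL-4 response had an interaction, with a median of 2 per gene, led by the arginine transporter gene Slc7a2 with 49. Cish had 28, Il4ra and Stat6, the receptor and factor of the pathway, 26 each, Socs1 23, and Egr2, an IL-4-induced transcription factor gene, 7. Fn1, Cd209a, Cdh1, Myc, Cd36, Alox15 and F13a1 had 0. Of 28 genes of classical activation, 25 had an interaction (median 2), led by Irf5 with 37, while Nos2, the enzyme that competes with Arg1 for arginine, had 0 at the narrow setting and 5 at the wide one. Of 26 paralogs and neighbours of the 10 genes, 15 had one (median 1). The 10 genes themselves, 7 with an interaction and a median of 3, stood beside these. Of all protein-coding genes, 63.2% had an interaction (median 2). At the wide setting the numbers for the lists, in the same order, were 25 of 29 (median 4), 27 of 28 (median 6) and 18 of 26 (median 2). Of the 10 genes, 9 had an interaction there (median 5.5), as did 70.4% of all genes (median 4).

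The identity of the cells was checked on the promoters of marker genes. All 10 macrophage markers had an interaction at the narrow setting (median 12, range 1 to 42), as did 2 of 6 T cell, 3 of 5 B cell, 3 of 5 neutrophil and 1 of 4 stromal markers, with medians of 0, 1, 1 and 0. At the wide setting the numbers were 10 of 10 macrophage markers (median 17), 6 of 6 T cell, 5 of 5 B cell, 4 of 5 neutrophil and 1 of 4 stromal markers, with medians of 1, 4, 2 and 0, so the presence of an interaction did not separate macrophage from T or B cell markers there. The part of other cells in the interactions of the 10 genes was not tested. The list summed to 12385062 observed counts, over its significant bin pairs alone. Sequencing depth per sample is therefore unknown here.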

How the data were processed

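H3K4me3 HiChIP was performed by the authors on formaldehyde-fixed BMDMs cut with MboI. Bowtie2, bedtools and the mm10 build are named in the submitters' notes on processing. By the study's methods, MAPS was run at a 5000-bp bin size on the merge of all 4 samples with H3K4me3 peaks as anchors. MAPS needs a peak in 1 of both bins, so unmarked promoters can enter only as partners. The deposited observed counts are whole paired-read counts, and the deposited expected counts are estimates of the authors' model. False discovery rates (p-values after adjustment) were deposited by the authors and were all below 0.01. The authors' deposited −log10 p-value of each cluster was not used.

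The list was pooled, so a planned limma test of IL-4 against basal was not possible. It was analysed as deposited, on 19 autosomes, and the X chromosome was not analysed here. Positions are in mm10, counted from 1, which is GRCm38, and genes are those of the basic set of GENCODE M21. Distances are between bin starts. Percentiles compare a ratio with all listed interactions within 10% of its distance. Repeats were 75-base words found more than once in GRCm38 on either strand.

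The 10 genes and all lists were chosen with earlier results of these data known. Named were all 10 genes, their interactions with the highest count and ratio, partner bins with a TSS, the gene body with most partner bins, the gene with the most similar partner bins (for at least 3 interactions) and, for genes with none, the nearest listed bin and gene. Other interactions and genes named were chosen after their values were seen. Of the lists, Ear11 and Cxcl11 did not match a protein-coding gene of the annotation, and Irg1 is an older name of Acod1. The assignment was tested on simulated data. Python 3.11.15, numpy 2.4.6, pandas 2.3.3, scipy 1.17.1, numba 0.67.0 and matplotlib 3.10.9 were used.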

Additional observations from a re-analysis of the deposited data

How the results depend on the processing

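No paired analysis was possible because the list is pooled over all samples. Counts were recomputed under stricter and wider settings, and 35 of 50 values stayed within 1.5 times. These include the values with only the outermost TSS of each gene, which all equalled the main ones. A fall from 7 genes to 5 with ratios of at least 4, for a TSS in the bin, also lies within that limit. For a TSS in the bin and within 2500 bp, the interactions of the 10 genes were 18 and 38 with a false discovery rate under 1e-06, 15 and 21 with ratios of at least 4, and 27 and 35 as clusters. With counts of at least 20, they were 29 for a TSS in the bin. Median interactions per gene for both widths were 1 and 3 with the stricter false discovery rate, 0.5 and 1 with ratios of at least 4, and 1.5 and 3 without singletons, and 1.5 with counts of at least 20 for a TSS in the bin. Genes with an interaction within 2500 bp were 5 with ratios of at least 4. Without singletons Arg2 had 0 interactions of its TSS bin. Chil3 had 0 at both widths with the stricter false discovery rate, with ratios of at least 4 and with counts of at least 20. Mgl2 had 0 at both widths with ratios of at least 4, and the single interactions of Chil4 and Pdcd1lg2 were lost with the stricter false discovery rate and with ratios of at least 4. Retnla was at 0 in every setting run. Far contacts of Tgm2, Arg1 and Mrc1 rest on few counts (7 to 21 at 285 kb and more), and counts below the list's limits were not analysed here.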
